A study of Mus musculus with 8 samples.

Results

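Acute-phase proteins are plasma proteins that the liver makes in altered amounts during inflammation or injury. The RNA of 10 genes of this response was followed, chosen by symbol from the 25239 gene symbols counted in each liver, with earlier results of these data known: the serum amyloid A genes Saa1, Saa2 and Saa3, the orosomucoid genes Orm1 and Orm2, haptoglobin (Hp), hemopexin (Hpx), lipocalin 2 (Lcn2), serum amyloid P component (Apcs) and the transcription factor Stat3. Saa3 and Lcn2 are made by other cells as well as hepatocytes, and Stat3 is the relay of the signal, not a secreted protein.

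Livers came from 8 adult male mice on a C57BL/6J background that carried floxed alleles of Smo (Smo fl/fl) and ate the CDA-HFD for 6 weeks, a high-fat diet without choline and low in amino acids that induces steatohepatitis. One week before sacrifice, 4 control mice received an adeno-associated virus of serotype 8 with luciferase under the TBG promoter (AAV8-TBG-Luciferase; titles Smo-Luc, genotype given as WT), and 4 mice received the same kind of vector with Cre recombinase (Smo-KO; titles Smo-Cre). The TBG promoter is active in hepatocytes, so the deletion is aimed at those cells, while the RNA is that of whole liver. No group without the diet or without a vector was analysed here. Smo encodes Smoothened, which the Hedgehog pathway needs to signal. The comparison asks whether losing it in hepatocytes of a steatohepatitic liver goes with a difference in the acute-phase RNAs.

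The acute-phase response is run mostly by cytokines. IL-6 binds its receptor and the shared signalling chain encoded by Il6st, Janus kinases then phosphorylate STAT3, and STAT3 enters the nucleus and acts on genes such as those for fibrinogen and haptoglobin. IL-1 and TNF act through NF-kB and the C/EBP transcription factors, on which the serum amyloid A and orosomucoid genes depend. Steatohepatitis is an inflammatory state of the liver in which such cytokines are produced inside the tissue.

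Each library held between 8203299 and 9999732 reads on genes, with a mean of 9615770 for control and 9140049 for Smo-KO livers (exact permutation test, two-sided p = 0.257, n = 4 each). Levels are given as CPM, counts scaled to library size by TMM, in which 3 reads equal 0.297 to 0.366 CPM. Smo itself stood at 8.17, 8.49, 8.74 and 8.21 CPM in control mice 1 to 4 and at 5.67, 3.93, 4.27 and 4.37 CPM in Smo-KO mice 1 to 4. Every Smo-KO liver lay below every control liver, and the mean was 54.3% of the control mean (exact permutation test, two-sided p = 0.0286, the smallest that 4 against 4 allows). Fitted with all genes, its log2 fold change was -0.88 (SE 0.16, edgeR adjusted p = 0.0957, DESeq2 adjusted p = 0.00613), so DESeq2 called it lower and edgeR did not. Smo-KO mouse 1 kept the highest Smo level of the 4. The counts are per gene and take in Smo RNA from all cells of the liver. In such bulk RNA, fewer cells of a type and less RNA per cell cannot be told apart. Each library is 1 mouse, and p-values for the groups set their difference against the spread between mice.

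All 10 genes passed the filter on low counts and were tested with the other genes, 12977 in all. In edgeR's quasi-likelihood test none of them reached an adjusted p under 0.05, and neither did any other gene (0% of those tested). DESeq2 called 0 of the 10, beside 1.36% of the 11967 genes to which it gave an adjusted p. At an unadjusted p under 0.05, edgeR's test took in 2 of the 10, Saa1 and Lcn2, both higher in Smo-KO livers, where 6.70% of all genes tested were higher at that level and 7.15% lower. DESeq2 gave an unadjusted p of 0.107 for Saa1 and 0.00861 for Lcn2. Mean levels were higher in Smo-KO livers for 7 of the 10 and lower for Hpx, Apcs and Stat3, beside 49.9% of all genes with a positive log2 fold change. The median log2 fold change of the 10 was 0.24, and that of all genes tested was -0.00084. The 2 groups overlapped for every one of the 10 genes, whereas for 7.37% of all genes tested the groups did not overlap (3.03% with Smo-KO livers higher, 4.34% with them lower). The share of a library's reads on genes that fell on the 10 together was 1.29% ± 0.0412 for control and 1.37% ± 0.0580 for Smo-KO mice (SD, n = 4 mice each).

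Serum amyloid A proteins travel on high-density lipoprotein and are among the plasma proteins that rise most steeply in acute inflammation. Their genes form a cluster on chromosome 7 (GRCm38): Saa3 at chr7:46711998-46715700 on the minus strand, Saa1 at chr7:46740497-46742980 on the minus strand and Saa2 at chr7:46751790-46754313 on the plus strand. Saa1 and Saa2 face away from each other with start sites 8853 bases apart in RefSeq. The 250 bases before the start sites of the 3 genes are shown because Saa1 and Saa2 moved together from mouse to mouse, with Saa3 following at a smaller amplitude. They are written 5′ to 3′ along each gene's strand, from RefSeq (GRCm38.p6), and capitals mark letters that fit TTGCNNAA, the C/EBP site, on either strand. The stretches lie at chr7:46742981-46743230 (Saa1), chr7:46751583-46751832 (Saa2) and chr7:46715677-46715926 (Saa3).
Saa1: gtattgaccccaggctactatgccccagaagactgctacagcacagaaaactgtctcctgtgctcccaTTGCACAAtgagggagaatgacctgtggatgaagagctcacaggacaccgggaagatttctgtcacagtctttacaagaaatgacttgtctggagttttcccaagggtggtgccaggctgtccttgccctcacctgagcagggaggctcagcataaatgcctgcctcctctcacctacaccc
Saa2: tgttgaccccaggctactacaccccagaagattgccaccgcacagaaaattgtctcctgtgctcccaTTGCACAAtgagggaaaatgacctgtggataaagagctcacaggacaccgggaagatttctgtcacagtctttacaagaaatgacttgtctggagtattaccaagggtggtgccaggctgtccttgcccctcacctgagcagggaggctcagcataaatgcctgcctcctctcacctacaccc
Saa3: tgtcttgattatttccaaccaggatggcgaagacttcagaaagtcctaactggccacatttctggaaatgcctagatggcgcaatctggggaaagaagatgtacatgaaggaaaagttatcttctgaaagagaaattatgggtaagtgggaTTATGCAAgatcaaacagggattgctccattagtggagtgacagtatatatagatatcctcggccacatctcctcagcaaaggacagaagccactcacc

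Over 250 bases before and 50 bases after the start, the Saa1 and Saa2 promoters were identical at 287 of 301 aligned columns (95.3%). Both held TTGCACAA, its first base 182 bases before the start of Saa1 and 183 bases before that of Saa2. In Saa3 the match TTATGCAA began 99 bases before the start. Of the 10 genes, 8 had a promoter in the RefSeq table, and 6 of those 8 held TTGCNNAA on either strand, beside 10.8% of all 32851 promoters of this length. The palindromic STAT letters TTCNNNGAA were in 1 of the 8 (Apcs, TTCTAGGAA, 244 bases before the start) and in 8.30% of all promoters, and the NF-kB letters, GGGNN directly followed by TTNCC, were in 0 of the 8 and in 4.79%. The IL-6 response core CTGGGA was in 2 of the 8 (Apcs and Saa3) and in 31.8% of all. None of these matches overlapped each other. A match describes letters, not binding, and letters that are missing say nothing of regions outside this window. Whether the matches bear on the levels, or on how they move together, was not tested.

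Saa1 had 147, 233, 136 and 165 CPM in control mice 1 to 4. In Smo-KO mice 1 to 4 it had 134, 541, 189.9 and 297 CPM. The highest level belonged to Smo-KO mouse 2 and the next to Smo-KO mouse 4, both above all controls, while Smo-KO mouse 1 lay below all controls. The means were 170.1 ± 43.3 CPM in control and 291 ± 180.1 CPM in Smo-KO livers (SD, n = 4 mice each), a log2 fold change of 0.77 (SE 0.33, 95% interval 0.05 to 1.5, edgeR adjusted p = 0.330). Leaving out Smo-KO mouse 2 took the log2 fold change to 0.28, and leaving out Smo-KO mouse 1 took it to 1.02 (edgeR, adjusted p = 0.114).

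Saa2 followed nearly the same order of mice at a lower level. Control livers had 56.0, 101.1, 54.2 and 71.4 CPM, and Smo-KO livers 50.1, 227, 65.2 and 118 CPM. The Smo-KO mean was 163% of the control mean (log2 fold change 0.70, SE 0.38, 95% interval -0.11 to 1.52, edgeR adjusted p = 0.427), and without Smo-KO mouse 2 the log2 fold change was 0.14. Within each liver, the Saa2 count was set against the Saa1 count, which gave 41.2% ± 2.68 for control and 38.3% ± 3.28 for Smo-KO mice (SD, n = 4 mice each). The ratios of the groups overlapped (log2 ratio, two-sided p = 0.229 by exact permutation, and 0.229 when adjusted over 2 ratios). The ratio was highest in control mice 2 and 4 and lowest in Smo-KO mouse 3 (34.4%), so it varied far less than either gene's level. Of the 50-base windows of the main Saa1 transcript, 14.8% also occur in other genes, mostly Saa2, and of the 100-base windows 0%. Read length is not given in the sources used here, and reads on more than 1 place are listed at 0 in every library, so a part of the reads from shared stretches may be absent from both genes.

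Saa3, the form that macrophages and adipocytes also make, had 24.2, 25.2, 19.2 and 22.2 CPM in control livers. Smo-KO livers had 21.5, 37.2, 24.4 and 26.5 CPM, with Smo-KO mice 2 and 4 above all controls. Its log2 fold change was 0.28 (SE 0.16, 95% interval -0.07 to 0.62, edgeR adjusted p = 0.462), and leaving out single mice gave values from 0.093, without Smo-KO mouse 2, to 0.38, without Smo-KO mouse 1. The fourth gene of the cluster, Saa4, which is expressed constitutively, had 212 to 320.3 CPM in control livers and 276, 483, 246 and 267 CPM in Smo-KO livers (log2 fold change 0.21, edgeR adjusted p = 0.673). There too, Smo-KO mouse 2 stood apart, whereas Smo-KO mouse 4 did not, and without Smo-KO mouse 2 the log2 fold change of Saa4 was -0.065.

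**Figure D1:**
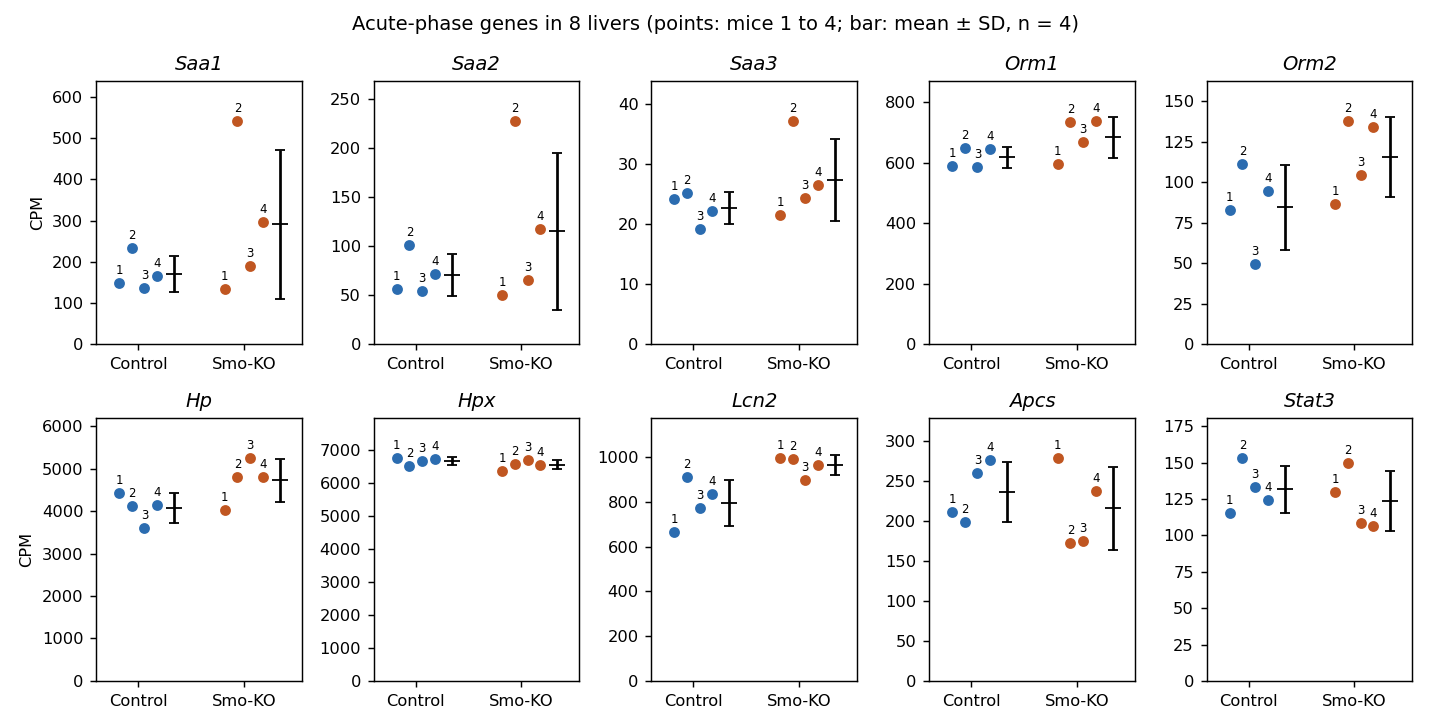
CPM of the 10 acute-phase genes in each liver, with mice numbered 1 to 4 and a bar for the mean ± SD of each group (n = 4). Smo-KO mice 2 and 4 lie above all controls for Saa1, Saa2, Saa3, Orm1, Orm2, Hp and Lcn2, and every gene has at least 1 overlap between the groups.

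Orosomucoids, also called alpha-1-acid glycoproteins, bind drugs and lipids in plasma. Orm1 (chr4:63344560-63348163, plus strand) and Orm2 (chr4:63362449-63365878, plus strand) are neighbours, and 20.4% and 22.7% of their 50-base windows occur in other genes, almost all in each other. Orm1 had 589, 649.6, 585 and 647 CPM in control livers and 595, 734, 669.8 and 737 CPM in Smo-KO livers. The levels of Smo-KO mice 2, 3 and 4 exceeded every control, and mouse 1 fell among the controls. The log2 fold change was 0.15 (SE 0.09, 95% interval -0.06 to 0.35, edgeR adjusted p = 0.514).

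Orm2 was less abundant and more scattered. It had 83.1, 111.0, 49.3 and 94.9 CPM in control livers and 86.5, 138, 104.3 and 134 CPM in Smo-KO livers, so that control mouse 3 was lowest and Smo-KO mice 2 and 4 were highest. The Smo-KO mean was 137% of the control mean (log2 fold change 0.45, SE 0.21, 95% interval -0.01 to 0.91, edgeR adjusted p = 0.366), and without control mouse 3 the log2 fold change was 0.27. Within each liver, Orm2 counts were 13.6% ± 3.67 of Orm1 counts in control and 16.8% ± 2.04 in Smo-KO mice (SD, n = 4 mice each, two-sided p = 0.171 by exact permutation, adjusted 0.229), with 8.42% in control mouse 3. Orm3, the least abundant gene of the family, had at most 6.00 CPM, reached in Smo-KO mouse 2, and at least 0.596 CPM, in control mouse 3 (log2 fold change 0.72, SE 0.46, edgeR adjusted p = 0.516, but 0.27 without Smo-KO mouse 2). The 250 bases before Orm2 (chr4:63362199-63362448, plus strand, GRCm38.p6) are shown because they hold both a palindromic C/EBP match, TTGCGCAA, 120 bases before the start, and TATAAA, 33 bases before it, the only such TATA letters among the 8 promoters and present in 13.6% of all. Capitals mark these 2 matches.
Orm2: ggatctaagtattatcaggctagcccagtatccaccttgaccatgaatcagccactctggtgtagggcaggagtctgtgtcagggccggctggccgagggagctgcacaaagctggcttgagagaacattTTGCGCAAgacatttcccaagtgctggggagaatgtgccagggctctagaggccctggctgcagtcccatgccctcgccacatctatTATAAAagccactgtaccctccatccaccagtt

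Haptoglobin captures free hemoglobin and hemopexin captures free heme, and both were among the most abundant RNAs of these livers. Hp (chr8:109575128-109579172, minus strand) had 4437, 4122, 3602 and 4147 CPM in control livers and 4036, 4801, 5254 and 4795 CPM in Smo-KO livers. Again Smo-KO mice 2, 3 and 4 exceeded every control and mouse 1 did not. The means were 4077 ± 348 and 4721 ± 505 CPM (SD, n = 4 mice each), a log2 fold change of 0.21 (SE 0.10, 95% interval -0.02 to 0.44, edgeR adjusted p = 0.394).

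Hpx (chr7:105591613-105600137, minus strand) was nearly level across the 8 mice. Control livers had 6751, 6501, 6641 and 6728 CPM, and Smo-KO livers had 6361, 6551, 6697 and 6539 CPM. The lowest of all was Smo-KO mouse 1, and the highest liver exceeded it by a factor of only 1.06. Its log2 fold change was -0.03 (SE 0.08, 95% interval -0.20 to 0.15, edgeR adjusted p = 0.920). The 250 bases before Hpx (chr7:105600117-105600366, minus strand, GRCm38.p6) are shown beside those of the variable genes because they, too, hold letters of the C/EBP site, TTGCTGAA, 200 bases before the start, in capitals.
Hpx: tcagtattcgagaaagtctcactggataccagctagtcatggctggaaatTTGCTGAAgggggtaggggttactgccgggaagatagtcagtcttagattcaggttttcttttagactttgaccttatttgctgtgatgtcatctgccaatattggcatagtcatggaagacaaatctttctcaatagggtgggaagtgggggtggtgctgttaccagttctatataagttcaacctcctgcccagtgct

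Lipocalin 2 binds bacterial siderophores and so withholds iron from microbes. In liver both hepatocytes and neutrophils can make it. Lcn2 (chr2:32384633-32388252, minus strand) had 668, 909, 775 and 834 CPM in control livers and 997, 992, 900.0 and 967 CPM in Smo-KO livers. Its groups overlapped by a single pair, in that Smo-KO mouse 3 fell just short of control mouse 2. Smo-KO mouse 1, the lowest liver of all for Saa1, was the highest for Lcn2. The means were 796 ± 102 and 964 ± 44.6 CPM (SD, n = 4 mice each), a log2 fold change of 0.28 (SE 0.10, 95% interval 0.06 to 0.50, edgeR adjusted p = 0.267). With each mouse left out in turn the log2 fold change ran from 0.20 to 0.35.

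Markers of neutrophils, which can also make Lcn2, were scarce. The part of these cells in the Lcn2 level was not tested. Their 12 markers summed to 12.6 ± 4.77 CPM in control and 12.1 ± 0.936 CPM in Smo-KO livers (SD, n = 4 mice each). S100a9 was the most abundant at 5.72 and 5.19 CPM, S100a8 followed at 4.23 and 3.84 CPM, Ly6g was at 0 in every liver, and Camp, Mpo and Stfa2l1 had at most 3 reads anywhere. Only S100a8 and S100a9 passed the filter, with log2 fold changes of -0.15 and -0.14 (edgeR, adjusted p = 0.855 and 0.814), and without control mouse 3 both signs turned, to 0.064 and 0.12. Slc22a17, a receptor of lipocalin 2, had 2.24 ± 0.587 and 2.44 ± 0.697 CPM (SD, n = 4 mice each).

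Serum amyloid P component is the pentraxin that serves as a main acute-phase reactant in mice. Apcs (chr1:172893961-172895041, minus strand) had 210.5, 198, 259.6 and 276 CPM in control livers and 278, 172, 174 and 237 CPM in Smo-KO livers. Smo-KO mouse 1, the lowest of all 8 for Saa1, was the highest for Apcs, and Smo-KO mouse 2, the highest for Saa1, was the lowest. Its log2 fold change was -0.13 (SE 0.16, 95% interval -0.48 to 0.21, edgeR adjusted p = 0.755), and it was -0.037 without Smo-KO mouse 2 and -0.27 without Smo-KO mouse 1. Crp, the other short pentraxin and a minor reactant in mice, lay between 197 and 226 CPM in control and between 206 and 264 CPM in Smo-KO livers (log2 fold change 0.15, edgeR adjusted p = 0.516).

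Stat3 (chr11:100885098-100939540, minus strand) had 116, 153, 133 and 124 CPM in control livers and 129.9, 149.9, 109 and 106 CPM in Smo-KO livers. Smo-KO mice 3 and 4 lay below all controls and the other 2 among them. Its log2 fold change was -0.09 (SE 0.12, 95% interval -0.36 to 0.18, edgeR adjusted p = 0.790), and leaving out single mice moved it between -0.19, without Smo-KO mouse 2, and -0.0045, without control mouse 2. RNA levels do not show how much STAT3 protein was phosphorylated.

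Set per kilobase of the main transcript, the 10 genes spanned over 2 orders of magnitude in CPM per kb. Hpx was highest (mean over the 8 livers 4400 CPM per kb), then Hp (3271), Lcn2 (962), Orm1 (839.7), Saa1 (378), Apcs (232), Saa2 (142), Orm2 (129), Saa3 (45.1) and Stat3 (28.3). Of the 9 neighbouring pairs in this order, the ranges over the 8 livers did not overlap for Hpx and Hp, Hp and Lcn2, or Saa3 and Stat3. Within livers, Lcn2 exceeded Orm1 in 7 of 8, Saa1 exceeded Apcs in 5 of 8, and Saa2 exceeded Orm2 in 4 of 8. Saa1 and Apcs therefore do not differ beyond their spread, and neither do Saa2 and Orm2.

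**Figure D2:**
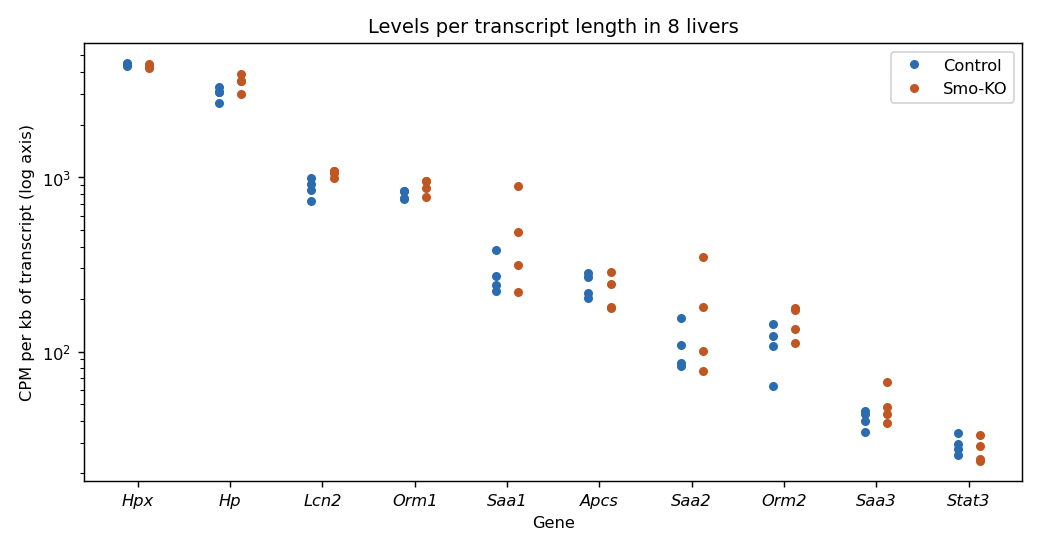
CPM per kilobase of the main transcript (log axis) for each of the 8 livers, with genes ordered by their mean. Hpx and Hp stand above all other genes in every liver, and the points of Saa1, Saa2 and Orm2 are spread the most.

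Read by liver, the difference between the groups was uneven. In Smo-KO mice 2 and 4, the same 7 genes, Saa1, Saa2, Saa3, Orm1, Orm2, Hp and Lcn2, lay above the highest control. Of all genes tested, 10.2% did so in both of these livers. The pair was picked out after the values were seen, so these shares are a description only. Several of the 7 genes were correlated across livers and are not separate observations. Apcs in mouse 2 and Stat3 in mouse 4 lay below the lowest control. In Smo-KO mouse 3, Orm1 and Hp lay above the highest control and Apcs and Stat3 below the lowest. In Smo-KO mouse 1, Lcn2 and Apcs lay above, and Saa1, Saa2 and Hpx below. Of all genes tested, 18.8%, 21.1%, 26% and 23.2% lay above the highest control in Smo-KO mice 1 to 4, and 19.5%, 24%, 27.3% and 23.8% lay below the lowest. The median of the 10 deviations from the control mean (log2 CPM) was 0.29 in Smo-KO mouse 2, 0.25 in mouse 4, 0.12 in mouse 3 and -0.03 in mouse 1, while the 4 control livers ran from -0.13 to 0.18. Without Smo-KO mouse 1, 7 of the 10 genes had an unadjusted p under 0.05 in edgeR's test, all higher, beside 8.96% of all genes tested in that fit that were higher at this level, and no member passed after adjustment. Without Smo-KO mouse 2, Lcn2 alone was under 0.05 unadjusted, beside 6.48% of all genes. Over all single mice left out, 1 to 7 of the 10 genes were under 0.05 unadjusted. The relation of these profiles to the Smo level left in each liver was not tested.

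**Figure D3:**
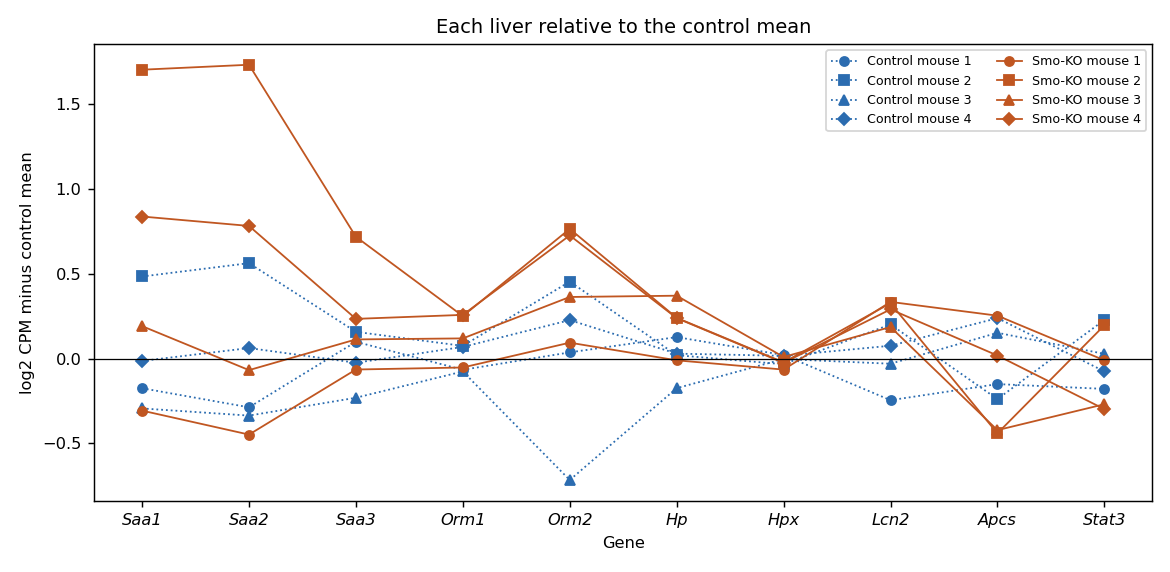
Log2 CPM of each liver minus the control mean (y axis) for the 10 genes (x axis), 1 line per mouse, dotted for control and solid for Smo-KO. Smo-KO mice 2 and 4 run above the controls from Saa1 to Hp, while Smo-KO mouse 1 runs within or below them over those genes and above them for Lcn2 and Apcs.

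How far mice of 1 group differed depended strongly on the gene. The within-group SD of log2 CPM was 0.74 for Saa2 and 0.66 for Saa1, above 99.8% and 99.7% of the 6553 tested genes at least as abundant as Saa3, whose median was 0.15. Orm2 (0.42), Apcs (0.29) and Saa3 (0.27) followed, above 97.7%, 93.0% and 90.9% of those genes. Stat3 (0.21), Hp (0.14), Lcn2 (0.14) and Orm1 (0.12) lay closer to the middle. Hpx had an SD of 0.028, lower than all but 0.0305% of those genes. The scatter of Saa1 was larger among Smo-KO mice (SD 0.87) than among controls (SD 0.34), and that of Orm2 was larger among controls (0.51 against 0.32). These differences in scatter were not tested.

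**Figure D4:**
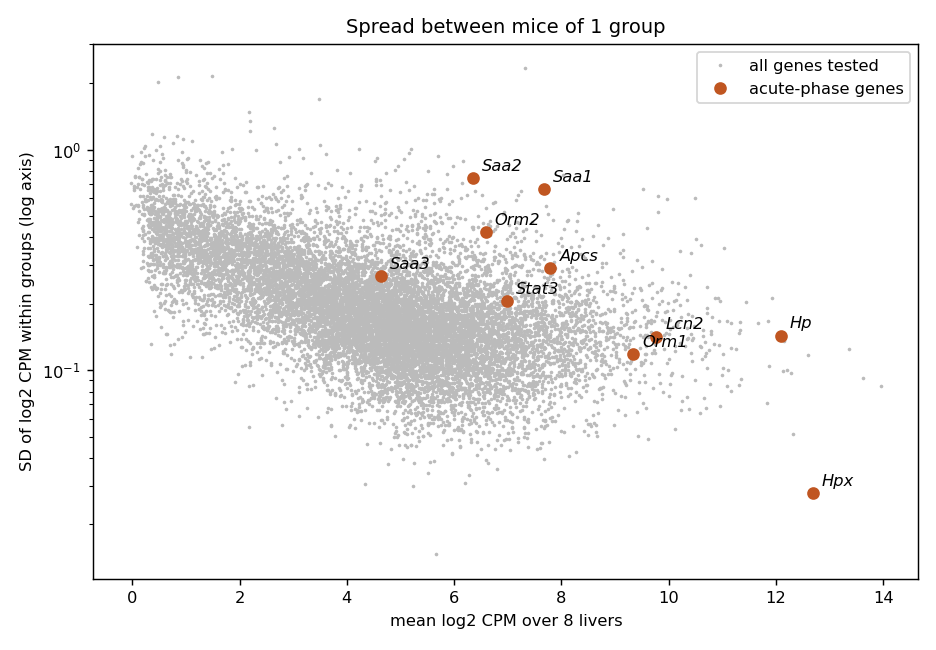
Within-group SD of log2 CPM (log axis) against mean log2 CPM for all 12977 genes tested (grey) and the 10 acute-phase genes (orange). Saa1, Saa2 and Orm2 lie at the upper edge of the genes of their abundance, and Hpx lies at the lower edge.

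Across the 8 livers, Saa1 and Saa2 were correlated with Pearson's r = 0.99 (exact permutation p = 0.000174, adjusted over 45 pairs 0.00781) and Spearman's rho = 0.98 (exact permutation p = 0.000397, adjusted 0.0171). Without Smo-KO mice 2 and 4, the farthest from the median of Saa1, r was 0.94, and within groups it was 0.995. Saa1 and Saa3 gave r = 0.95 and rho = 0.95 (exact permutation p = 0.000372 and 0.00114, adjusted 0.00837 and 0.0171), with r = 0.75 without those 2 mice. Saa1 and Orm1 gave r = 0.89 and rho = 0.88 (exact permutation p = 0.00104 and 0.00724, adjusted 0.0156 and 0.0362), with r = 0.82 without them. Saa1 and Apcs ran opposite, with r = -0.63 and rho = -0.74, and did not pass (exact permutation p = 0.0874 and 0.0458, adjusted 0.231 and 0.137). Saa1 and Orm2 passed by rho = 0.93 (exact permutation, adjusted p = 0.0201) but not by r = 0.78 (adjusted 0.117). With Hp, Lcn2, Stat3 and Hpx, Saa1 gave r = 0.55, 0.55, 0.30 and -0.18, and none passed (exact permutation, adjusted p = 0.326, 0.326, 0.685 and 0.776). Pairs without Saa1 passed as well, such as Saa2 and Saa3 (r = 0.92, adjusted p = 0.0183). Each pair shares its libraries and their scaling, and part of the sequence of Saa1, Saa2 and Saa3.

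Outside the 10 genes, the 5 most like Saa1 by Pearson's r of log2 CPM over the 8 livers were Slc17a3 (0.95), Dock4 (0.95), Azin1 (0.94), Aldh6a1 (0.93) and Gatad1 (0.93), and 18 of 12967 genes exceeded 0.9. All 5 were highest in Smo-KO mouse 2, but over a narrower range than Saa1. Slc17a3, a urate and anion transporter, ran from 64.4 to 86.8 CPM. Those most like Stat3 were Slc41a2 (0.95), Spint1 (0.95), Ext1 (0.95), Tbl1x (0.94) and Zbed6 (0.93), among 21 genes above 0.9. With 8 livers and this many genes searched, the values are a description of likeness only.

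Of 30 other genes whose products rise in an acute-phase response, 29 were tested. None passed the adjusted threshold, 4 had an unadjusted p under 0.05 and were higher in Smo-KO livers, and 1 was lower, beside 6.70% of all genes tested higher and 7.15% lower at that level. Their median log2 fold change was 0.06, and 4 were higher with no overlap between the groups, beside 3.03% of all genes tested. Those 4 were the metallothioneins Mt1 and Mt2, which bind zinc and copper, Lrg1, a leucine-rich plasma glycoprotein, and Fgl1, a hepatocyte-secreted relative of fibrinogen. DESeq2 called Mt1, Mt2 and Lrg1, beside 1.36% of all genes.

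Mt1 had 71.7, 86.6, 66.4 and 88.4 CPM in control livers and 147, 144, 179 and 119.5 CPM in Smo-KO livers, so all 4 Smo-KO mice lay above every control. Its log2 fold change was 0.91 (SE 0.13, edgeR adjusted p = 0.0785, DESeq2 adjusted p = 6.91e-07). Mt2 behaved likewise at 34.9 ± 8.59 and 61.3 ± 7.10 CPM (SD, n = 4 mice each, log2 fold change 0.81, SE 0.15, edgeR adjusted p = 0.10, DESeq2 adjusted p = 0.000717). Lrg1 had 1165, 1258, 1037 and 1069.7 CPM in control livers and 1329, 1691, 1816 and 1371 CPM in Smo-KO livers (log2 fold change 0.45, SE 0.12, edgeR adjusted p = 0.156, DESeq2 adjusted p = 0.0208). Fgl1 was at 191 ± 6.20 and 227 ± 27.9 CPM (SD, n = 4 mice each, log2 fold change 0.24, edgeR adjusted p = 0.290).

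The fibrinogen chains, which IL-6 induces, had negative log2 fold changes. Fga had a log2 fold change of -0.30 (SE 0.12, edgeR adjusted p = 0.308), Fgb -0.06 and Fgg -0.10. With 1 mouse left out, Fgb ran from -0.16 to -0.011 and Fgg from -0.21 to -0.064, both lowest without Smo-KO mouse 2. Smo-KO mouse 2 had the highest Fgg of its group, 1882 CPM against 1419 to 1448 CPM in the other 3. Lbp, which presents bacterial lipopolysaccharide, had a log2 fold change of -0.31 (edgeR, adjusted p = 0.429, but -0.11 without control mouse 2), and Serpina3n, a protease inhibitor, one of -0.04, with the sign depending on which mouse was left out. Among the most abundant genes of the list, complement C3 had 6511 ± 399 and 5957 ± 570 CPM, Fgb 1897 ± 65.9 and 1816 ± 237 CPM, and Serpina1b, an alpha-1 antitrypsin gene, 1703 ± 187 and 1778 ± 105 CPM (SD, n = 4 mice each). Il1rn, the IL-1 receptor antagonist, had a log2 fold change of -0.15, which was -0.036 without Smo-KO mouse 4.

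**Figure D5:**
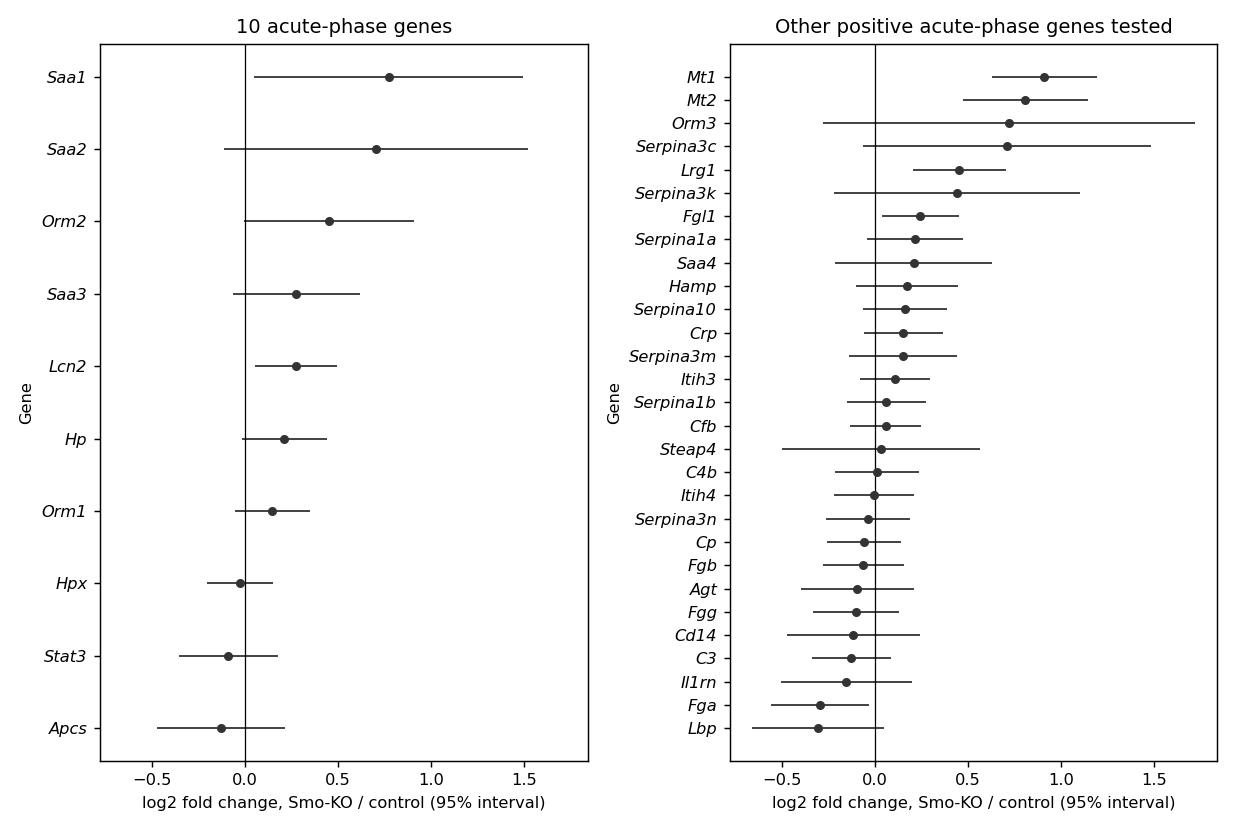
Log2 fold change of Smo-KO against control livers with its 95% interval (edgeR, 4 mice per group) for the 10 acute-phase genes (left) and the 29 other positive acute-phase genes tested (right). The intervals of Saa1 and Lcn2 on the left, and of Mt1, Mt2, Lrg1 and Fgl1 on the right, lie above 0, that of Fga lies below 0, and none of these genes passed adjustment over all genes.

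Genes whose products fall in an acute-phase response showed no common direction. Of 14, all tested, 7 had a positive and 7 a negative log2 fold change (median 0.0093), and 1 had an unadjusted p under 0.05 (13.8% of all genes tested did): Igf1, the growth factor that inflammation lowers, higher in Smo-KO livers (470 ± 99.2 against 653 ± 162 CPM, SD, n = 4 each; log2 fold change 0.47, or 0.31 without Smo-KO mouse 3, edgeR adjusted p = 0.281). Albumin (Alb) had a log2 fold change of -0.11, transferrin (Trf) -0.12, the vitamin D-binding protein Gc -0.08, apolipoprotein A-I (Apoa1) 0.18 and the cytochrome P450 gene Cyp2c29 -0.35. With 1 mouse left out, Trf reached -0.077, Gc -0.049 and Cyp2c29 -0.13.

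In the IL-6 pathway, 17 of 21 genes were tested, and 1 was higher and 2 lower in Smo-KO livers at an unadjusted p under 0.05, a share of 17.6% beside 13.8% of all genes tested. The ligand gene Il6 had at most 4 reads in any liver, which is near the floor of 3 reads. Clcf1, a ligand of the same family, had 7.62 ± 1.38 and 10.5 ± 2.05 CPM (SD, n = 4 mice each, log2 fold change 0.47, edgeR adjusted p = 0.281). The receptor chains Il6ra (-0.23), Il6st (0.02) and Lifr (0.38) and the kinase Jak1 (-0.12) had log2 fold changes with edgeR adjusted p of 0.738, 0.948, 0.372 and 0.588. Without Smo-KO mouse 3, Il6ra was at -0.039 and Lifr at 0.15, without control mouse 3 Jak1 was at -0.067, and the sign of Il6st depended on which mouse was left out. Socs3, the feedback inhibitor that STAT3 induces, had 29.3, 42.2, 19.8 and 26.1 CPM in control livers and 35.1, 30.1, 29.9 and 27.7 CPM in Smo-KO livers. Its groups overlapped widely (log2 fold change 0.07, edgeR adjusted p = 0.904), and the sign depended on which mouse was left out.

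Socs1, a feedback inhibitor of cytokine signalling that interferon also induces, had 4.65, 11.8, 10.8 and 7.02 CPM in control livers and 3.71, 2.62, 5.24 and 2.77 CPM in Smo-KO livers. Its groups overlapped in that Smo-KO mouse 3 exceeded control mouse 1 (log2 fold change -1.27, SE 0.30, edgeR adjusted p = 0.140, DESeq2 adjusted p = 0.00908), and DESeq2 called it where edgeR did not.

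Of 20 genes of the IL-1, TNF and IL-22 inputs, 18 were tested, with 2 higher and 1 lower at an unadjusted p under 0.05 (16.7% beside 13.8% of all genes). Il1r1, the IL-1 receptor, had 42.9 ± 7.77 and 57.2 ± 10.8 CPM, and Nfkbiz, an NF-kB cofactor that promotes Lcn2 transcription, had 27.3 ± 5.05 and 35.6 ± 3.61 CPM (SD, n = 4 mice each, log2 fold changes 0.41 and 0.39, edgeR adjusted p = 0.262 and 0.241). Nfkb1 was lower (log2 fold change -0.24, edgeR adjusted p = 0.308). Tnf had 4.20, 4.09, 5.07 and 3.66 CPM in control livers and 3.40, 2.62, 3.66 and 3.52 CPM in Smo-KO livers, so every Smo-KO liver lay below every control by a narrow margin, as for 4.34% of all genes tested (log2 fold change -0.37, edgeR adjusted p = 0.415). The log2 fold changes of Il1b (-0.22), Tnfrsf1a (-0.16), Rela (-0.14) and Nfkbia (-0.13) had unadjusted p over 0.05. With 1 mouse left out, Il1b reached 0.0043, Tnfrsf1a -0.089, Rela -0.061 and Nfkbia -0.054.

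Among 10 transcription factors of the response, all tested, 2 were higher at an unadjusted p under 0.05, beside 6.70% of all genes. Creb3l3, an endoplasmic reticulum-bound factor that activates Apcs and hepcidin, had 422, 392, 368 and 380.1 CPM in control livers and 443, 535, 558 and 471 CPM in Smo-KO livers, with no overlap, as for 3.03% of all genes (log2 fold change 0.36, SE 0.10, edgeR adjusted p = 0.163, DESeq2 adjusted p = 0.0292). Onecut1 had 1.47, 1.36, 3.88 and 1.29 CPM in control and 2.47, 7.09, 13.8 and 4.37 CPM in Smo-KO livers, with control mouse 3 among the Smo-KO livers (log2 fold change 1.76, SE 0.50, edgeR adjusted p = 0.176). The C/EBP genes had log2 fold changes of 0.03 (Cebpa), -0.05 (Cebpb) and 0.05 (Cebpd), each with a sign that depended on which mouse was left out. Letters of the C/EBP site were in 6 of the 8 promoters searched, and binding was not measured. Hnf4a had a log2 fold change of -0.13 (edgeR, adjusted p = 0.579).

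Receptors and partners of the proteins numbered 15, with 14 tested, 1 higher and 1 lower at an unadjusted p under 0.05 (14.3% beside 13.8% of all genes). Hmox1, which degrades the heme that hemopexin delivers, had 102 ± 10.7 and 82.0 ± 13.8 CPM (SD, n = 4 mice each, log2 fold change -0.32, edgeR adjusted p = 0.283), and Fcgr3, an Fc receptor that pentraxins bind, had 33.3 ± 3.55 and 40.8 ± 4.22 CPM (log2 fold change 0.29, edgeR adjusted p = 0.266). Lrp1, the hemopexin receptor (0.07), Scarb1 (-0.03) and Cd36 (0.16), which bind serum amyloid A, and Ager (0.71, at most 1.34 CPM) had log2 fold changes with unadjusted p over 0.05. With 1 mouse left out, Lrp1 was as low as 0.015, Cd36 as 0.039 and Ager as 0.45, and the sign of Scarb1 turned. Cd163, the haptoglobin-hemoglobin receptor of macrophages, had 0.315 to 3.07 CPM in control and 0.654 to 2.99 CPM in Smo-KO livers.

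Markers of the cells that a liver holds were set beside these results, since their shares can differ between livers. The 10 hepatocyte markers summed to 30987 ± 1982 CPM in control and 29659 ± 1173 CPM in Smo-KO livers, with Alb the most abundant and 3 higher and 7 lower, 1 of them (Cps1) with no overlap (4.34% of all genes), so the tissue carried the RNA of its label. The 14 markers of Kupffer cells and macrophages, a source of Saa3, summed to 2075 ± 244 and 2175 ± 236 CPM, led by Cd5l, with 8 higher and 6 lower. In that list Adgre1 and Clec4f had log2 fold changes of 0.06 and -0.05, each with a sign that depended on which mouse was left out. Trem2 and Lyz2, picked out after their values were seen, were higher in every Smo-KO than in every control liver, beside 3.03% of all genes tested (log2 fold changes 0.75 and 0.31, edgeR adjusted p = 0.0957 and 0.219, DESeq2 adjusted p = 0.000156 and 0.10). DESeq2 called Trem2 alone of the 14, beside 1.36% of all genes called in either direction. The lowest was the monocyte gene Ly6c2 (log2 fold change -0.68, edgeR adjusted p = 0.405). The part of macrophages in the Saa3 level was not tested.

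Adipocyte markers other than Cidec, which fatty hepatocytes also express, were at or near 0. Adipoq, Plin1, Lep, Retn and Cfd had at most 1 read in any liver. The 7 cholangiocyte markers summed to 153 ± 42.9 and 183 ± 46.0 CPM, led by Spp1 (Krt19 was at 3.25 and 3.59 CPM), the 7 stellate cell markers to 665 ± 40.4 and 644 ± 92.2 CPM, led by Dcn, and the 5 sinusoidal endothelial markers to 151 ± 13.9 and 127 ± 39.3 CPM, led by Clec4g (SD, n = 4 mice each). All 5 endothelial markers had lower means in Smo-KO livers (median log2 fold change -0.26), 1 of them, Pecam1, at an unadjusted p under 0.05 in edgeR's test (7.15% of all genes were). By contrast, 6 of the 7 cholangiocyte and 4 of the 7 stellate cell markers were higher in mean, none of them at that level. Of the 7 stellate cell markers, 1 was lower at that level, beside 7.15% of all genes. The 7 markers of T, B and NK lymphocytes summed to 24.6, 23.6, 24.5 and 29.2 CPM in control livers and to 13.9, 10.5, 18.4 and 17.9 CPM in Smo-KO livers, with no overlap, and Cd8a was the most abundant. Of the 5 tested, edgeR called none, 3 were lower at an unadjusted p under 0.05 (Cd3e, Cd8a and Cd4, beside 7.15% of all genes), and DESeq2 called Cd3e and Cd8a lower, beside 1.36% of all genes called in either direction (log2 fold changes -0.98 and -0.77, edgeR adjusted p = 0.175 and 0.116, DESeq2 adjusted p = 0.0399 and 0.0143). The part of lymphocytes in the acute-phase levels was not tested. Of the erythroid markers, Alas2 had 111 ± 16.7 and 107 ± 16.6 CPM (SD, n = 4 mice each), and the 4 globin genes of the list, like all 10 globin symbols of the files, were listed at 0 in every liver.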

How the data were processed

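Whole-liver RNA was sequenced from 4 control and 4 Smo-KO mice. The authors deposited unnormalized counts, 1 list of whole-number reads per gene symbol and liver. The submitters' processing notes name fastp, STAR 2.7.5, featureCounts 2.0.1 and the build GRCm38 without giving their roles, and the lists end with entries in the form of htseq-count. Annotation, strand setting and read length are not given in the sources used here. Neither library sizes nor tests include entries that name no gene, of which reads on no feature averaged 8.33% (control) and 9.23% (Smo-KO) of all counted and ambiguous reads 2.55% and 2.51%.

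Groups were compared by the quasi-likelihood test of edgeR 4.0.16 in R 4.3.3, with filterByExpr at a minimum count of 10, TMM scaling, no covariate and p-values adjusted after Benjamini and Hochberg over 12977 genes (threshold 0.05), and DESeq2 1.42.0 served as an alternative. The fit was tested on simulated counts first. CPM used TMM-scaled library sizes, and log2 CPM a prior count of 2. SE and 95% intervals follow from edgeR's F statistic. Single values and correlations were tested by exact permutation. Coordinates and main transcripts came from GENCODE M21, and promoters from RefSeq (GRCm38.p6), searched on both strands for the letters given. Counting error is all that depth describes, since molecular identifiers are not given.

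The 10 genes and all lists were chosen with earlier results of these data known. Within each list the text names the 3 genes highest in mean CPM, the 3 with the smallest p, those whose groups do not overlap, and some fixed by name. Libraries of 1 group differed by a chi-square of 7.76 to 17.5 per degree of freedom, so none was a copy of another. Results of 1 gene of the lists are not reported here, and all counts still include it.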

Additional observations from a re-analysis of the deposited data

Results flagged for a closer look

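In 166 groups of 4 livers, a mouse was sought whose gap to the nearest of the other 3 exceeded the 95% critical value of Dixon's test, as a share of the group's range. Such gaps were found in 7 groups, and chance alone gives about 8.3. None concerned the 10 acute-phase genes themselves. In Smo-KO mouse 2, the liver with the highest Saa1, Saa4 was at 483 CPM against 246 to 276 CPM in the other 3, and Fgg at 1882 CPM against 1419 to 1448 CPM. Smo-KO mouse 4 had 74.8 CPM of Nfkbia, the NF-kB inhibitor, against 91.5 to 92.9 CPM. Control mouse 3 had 3.88 CPM of Onecut1 against 1.29 to 1.47 CPM, and control mouse 2 had 86.3 CPM of Hmox1 against 106 to 109 CPM. Adipoq was at 0.103 CPM, a single read, in Smo-KO mouse 1 and at 0 in the other 3. The library of Smo-KO mouse 3 was the smallest of its group, with 8203299 reads on genes against 9367795 to 9543675.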

How the results depend on the processing

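None of the 10 acute-phase genes reached an adjusted p under 0.05 or 0.1 in any alternative, and none changed sign. The number of genes called across the whole table, 0 by edgeR (1797 at an unadjusted p under 0.05), was 163 with DESeq2, 61 with no filter, 8 with the replicate block and 15 at an adjusted p under 0.1, and 0 to 78 with each mouse left out (78 without Smo-KO mouse 1). Of the 10 genes, 2 had an unadjusted p under 0.05 (13.8% of all genes tested), which became 3 with RLE size factors (13.8%), 3 with DESeq2 (12.5%), 4 with no filter (11.4%), 4 with the replicate block (16.3%) and 1 to 7 with each mouse left out (9.5% to 17.8%, the highest of both without Smo-KO mouse 1). With DESeq2 the 3 were Orm2, Hp and Lcn2, and Saa1 was not among them (DESeq2 unadjusted p = 0.107). In edgeR's test Saa1 was also not under 0.05 without control mouse 1, 3 or 4, or without Smo-KO mouse 2 or 4. The block tests a pairing by mouse number. Deviations of same-numbered mice all correlated positively, by 0.0611 to 0.187, and those of differently numbered mice by -0.205 to 0.158. Not all same-numbered values were over 0.1, so the comparison without the block took no pairing. Whether the numbers pair the livers is not settled. Of 998 alternative values for 77 genes, 952 kept their direction and side of the threshold, 14 passed it and 32 changed sign, the last all on leaving out 1 mouse. Log2 fold changes then ran from -0.0028 to 0.10 for Cebpa, -0.15 to 0.079 for Cebpb, -0.0014 to 0.13 for Cebpd, -0.094 to 0.059 for Scarb1, -0.023 to 0.083 for Il6st, -0.078 to 0.30 for Socs3, -0.31 to 0.0043 for Il1b, -0.13 to 0.010 for Serpina3n, -0.065 to 0.31 for Saa4, -0.59 to 0.17 for Cd163, -0.37 to 0.064 for S100a8, -0.26 to 0.12 for S100a9, -0.25 to 0.076 for Clec4f, -0.084 to 0.30 for Adgre1, -0.0011 to 0.084 for Gatad1, -0.46 to 0.11 for Slc41a2 and -0.23 to 0.10 for Spint1. Leaving out 1 mouse moved the log2 fold change of 55 of the 77 by over 1.5 times or turned its sign, among them 7 of the 10 acute-phase genes (not Orm1, Hp or Lcn2). The causes were not tested. Il6, Adipoq and most neutrophil markers lay at or near the floor of 3 reads.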
